A study of Mus musculus with 21 samples.

Results

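Transcripts of the transforming growth factor β (TGF-β) pathway were followed in sorted mouse inflammatory monocytes (IMs). The genes were the ligands Tgfb1, Tgfb2 and Tgfb3, the receptors Tgfbr1 and Tgfbr2, the transducer Smad3, the feedback inhibitors Smad7 and Skil, and the target gene Tgfbi, taken by symbol from the raw count table, which held all 9 among its 23420 gene symbols. RNA from 21 samples in 5 groups was sequenced, and tumor-infiltrating IMs (TIMs) were set against IMs from the bone marrow (BM IMs) of mice without tumors, so that the comparison asks which transcripts differ once these cells are in a tumor. FVB BM IMs and DBA2 BM IMs came from naive mice of each strain (n = 3 each), in which no agent was given. LN2E1 primary tumor TIMs and LN2E1 lymph node TIMs (n = 5 each) came from FVB mice that had received KAL-LN2-E1 cells, a lung squamous carcinoma line obtained by passage in mice, directly in the lung at 500000 cells per mouse. LN4K1 lung TIMs (n = 5) came from DBA2 mice that had received LN4K1 cells, a line descended from KLN-205 lung carcinoma, into a vein at 300000 cells per mouse. The labels name no engineered allele in any group. Monocytes were enriched with an isolation kit and sorted as live cells that were SiglecF-, CD45+, CD11b+, Ly6G- and high in Ly6C, a gate that takes hematopoietic myeloid cells and leaves out fibroblasts, epithelium, lymphocytes and neutrophils. Each tumor model was thus 1 cell line in 1 strain, given by 1 route, and cell line, strain, route and tissue cannot be told apart between the models, nor can tumor and tissue between TIMs and BM IMs. The labels used here give neither ages nor which library came from which mouse, and the study's methods call the replicates technical, so that the p-values below measure only the spread between these samples.

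TGF-β is secreted in a latent form, held by its propeptide and by latent TGF-β binding proteins, and becomes active when integrins, proteases or thrombospondin free it. The active ligand joins the type II receptor (Tgfbr2) to the type I receptor (Tgfbr1), which phosphorylates SMAD2 and SMAD3, and these enter the nucleus with SMAD4 and bind DNA at short CAGAC elements. In tumors the pathway is known for driving matrix production by fibroblasts and for restraining immune cells, and monocytes and macrophages both make and sense the ligand.

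The regions just upstream of 3 member genes that rose together in LN2E1 TIMs are shown because they differ in this SMAD letter sequence. They were taken from RefSeq on GRCm38.p6, written 5′ to 3′ along the gene, with each match to CAGAC on either strand (GTCTG on the shown strand) in capitals. Tgfb1 is given at chr7:25686752-25687001 on the plus strand, Tgfbr2 at chr9:116175364-116175613 on the minus strand and Tgfbi at chr13:56609336-56609522 on the plus strand, where 187 bases lie before the first annotated exon.
Tgfb1: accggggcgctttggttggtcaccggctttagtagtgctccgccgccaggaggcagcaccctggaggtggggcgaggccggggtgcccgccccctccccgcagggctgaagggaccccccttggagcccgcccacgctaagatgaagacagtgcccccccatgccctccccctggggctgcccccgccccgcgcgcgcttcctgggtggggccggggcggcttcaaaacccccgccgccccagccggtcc
Tgfbr2: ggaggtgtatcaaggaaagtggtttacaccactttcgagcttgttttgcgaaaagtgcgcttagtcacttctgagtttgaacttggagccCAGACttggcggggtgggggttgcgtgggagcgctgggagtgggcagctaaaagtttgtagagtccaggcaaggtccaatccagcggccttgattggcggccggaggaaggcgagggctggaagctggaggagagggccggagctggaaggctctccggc
Tgfbi: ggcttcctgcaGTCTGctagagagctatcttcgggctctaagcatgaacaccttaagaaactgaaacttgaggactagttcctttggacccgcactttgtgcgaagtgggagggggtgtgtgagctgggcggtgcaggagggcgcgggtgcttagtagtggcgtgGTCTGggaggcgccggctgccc
Tgfb1 had no match, Tgfbr2 had 1 and Tgfbi had 2. The table held such windows for 6 of the 9 members, with 2 windows for Tgfbr1. In the 250 bases before the start, Tgfb2 had 2 matches, the 2 windows of Tgfbr1 had 0 and 1, and Smad3 had none. A match to CAGAC occurred in 42.2% of all 32851 windows of that length, so its presence is common. The palindrome GTCTAGAC, present in 0.167% of windows, and the AP-1 element TGANTCA, present in 6.75%, were searched on both strands and had no match in any member window. These are matches of letters, not binding sites.

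Total counts per library lay between 80772922 and 101043568. Levels are given as CPM, counts relative to library size scaled with TMM factors, and a gene at 0 counts could have had up to 3 counts, between 0.0297 and 0.0371 CPM, a limit that covers counting error only. The 6 marker genes of sorted monocytes were detected in every library. Markers of other cells moved with the groups. The 8 macrophage markers summed to between 898 and 2071 CPM in BM IMs and to between 2354 and 5612 CPM in TIMs, but most of this was Apoe, at a median of 4610 CPM in LN4K1 lung TIMs, where C1qa was lower than in DBA2 BM IMs (medians 2.94 and 7.58 CPM). The 8 markers of neutrophils and their precursors summed to between 2917 and 5223 CPM in BM IMs and to between 233 and 1507 CPM in TIMs. Precursor genes such as Mpo carried that difference, while Mmp8 had a higher median in primary tumor TIMs (596 CPM) than in FVB BM IMs (443 CPM). Eosinophil markers summed to between 417 and 1081 CPM in BM IMs and to at most 68.0 CPM in TIMs, and T cell markers to at most 2.68 CPM in BM IMs and 59.2 CPM in TIMs. In lymph node TIMs Cd4 and Cd8a carried most of that sum (medians 12.1 and 11.7 CPM). Cd3d there was lower than in FVB BM IMs (medians 0.308 and 0.777 CPM). Cd3e and Cd3g had medians of 0.905 and 1.01 CPM in LN4K1 lung TIMs and of 0 in DBA2 BM IMs. Squamous epithelial markers, which could mark carcinoma cells, summed to at most 2.50 CPM in any library, and Dsg3 was at 0 in every library. One LN4K1 lung TIM library, replicate 3, stood apart, with 122000 CPM for the sorted monocyte markers against 67900 to 82790 CPM in its group and 343 CPM for dendritic cell markers against 102 to 185 CPM. In sorted bulk samples, fewer cells of a type and less RNA per cell cannot be told apart.

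In LN2E1 primary tumors, 8 of the 9 members rose in TIMs against FVB BM IMs and none fell, with Tgfb2 as the member that did not pass, where 33.3% of all genes tested rose. Calls are at an adjusted p under 0.05 by the quasi-likelihood test of edgeR, adjusted by Benjamini-Hochberg over all genes tested, and 61.9% of those genes were called in this comparison in either direction. In LN2E1 lymph node metastases 7 of 9 rose, where 37.4% of genes were called and 20.2% rose. In LN4K1 lung metastases 4 of 9 rose against DBA2 BM IMs, where 24.9% of genes were called and 13.9% rose. With the study's thresholds for a differentially expressed gene (DEG), an adjusted p below 0.0001 with a log2 change beyond 1 in either direction, applied here to the edgeR fit, 5 members passed in primary tumors (background 12.9%), 3 in lymph node metastases (5.71%) and 0 in LN4K1 TIMs (2.97%). With shrunken fold changes of DESeq2, to which the study applied them, 8 passed in primary tumors, 4 in lymph nodes and 2 in LN4K1 TIMs. The shares in parentheses are those of edgeR and do not apply to these counts. At an adjusted p under 0.05, DESeq2 called 9612 of 18477, 5939 of 16745 and 4613 of 17400 genes. Its share of DEGs among all genes is not given here. The 5 in edgeR were Tgfb1, Tgfb3, Tgfbr2, Skil and Tgfbi, and the 3 were Tgfbr2, Skil and Tgfbi. All 9 members were tested in each of these comparisons, but Tgfb3 had under 10 counts in every BM IM library and passed the filter on low counts only through the TIMs, so that it could be called in 1 direction only. Of the other 8, 7, 6 and 3 rose, and the edgeR DEGs among them in primary tumors were Tgfb1, Tgfbr2, Skil and Tgfbi. Both LN2E1 comparisons use the same 3 FVB BM IM libraries, so their results are given side by side and not as support for one another, and the comparisons between models and between strains draw on the same BM IM libraries again.

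**Figure D1:**
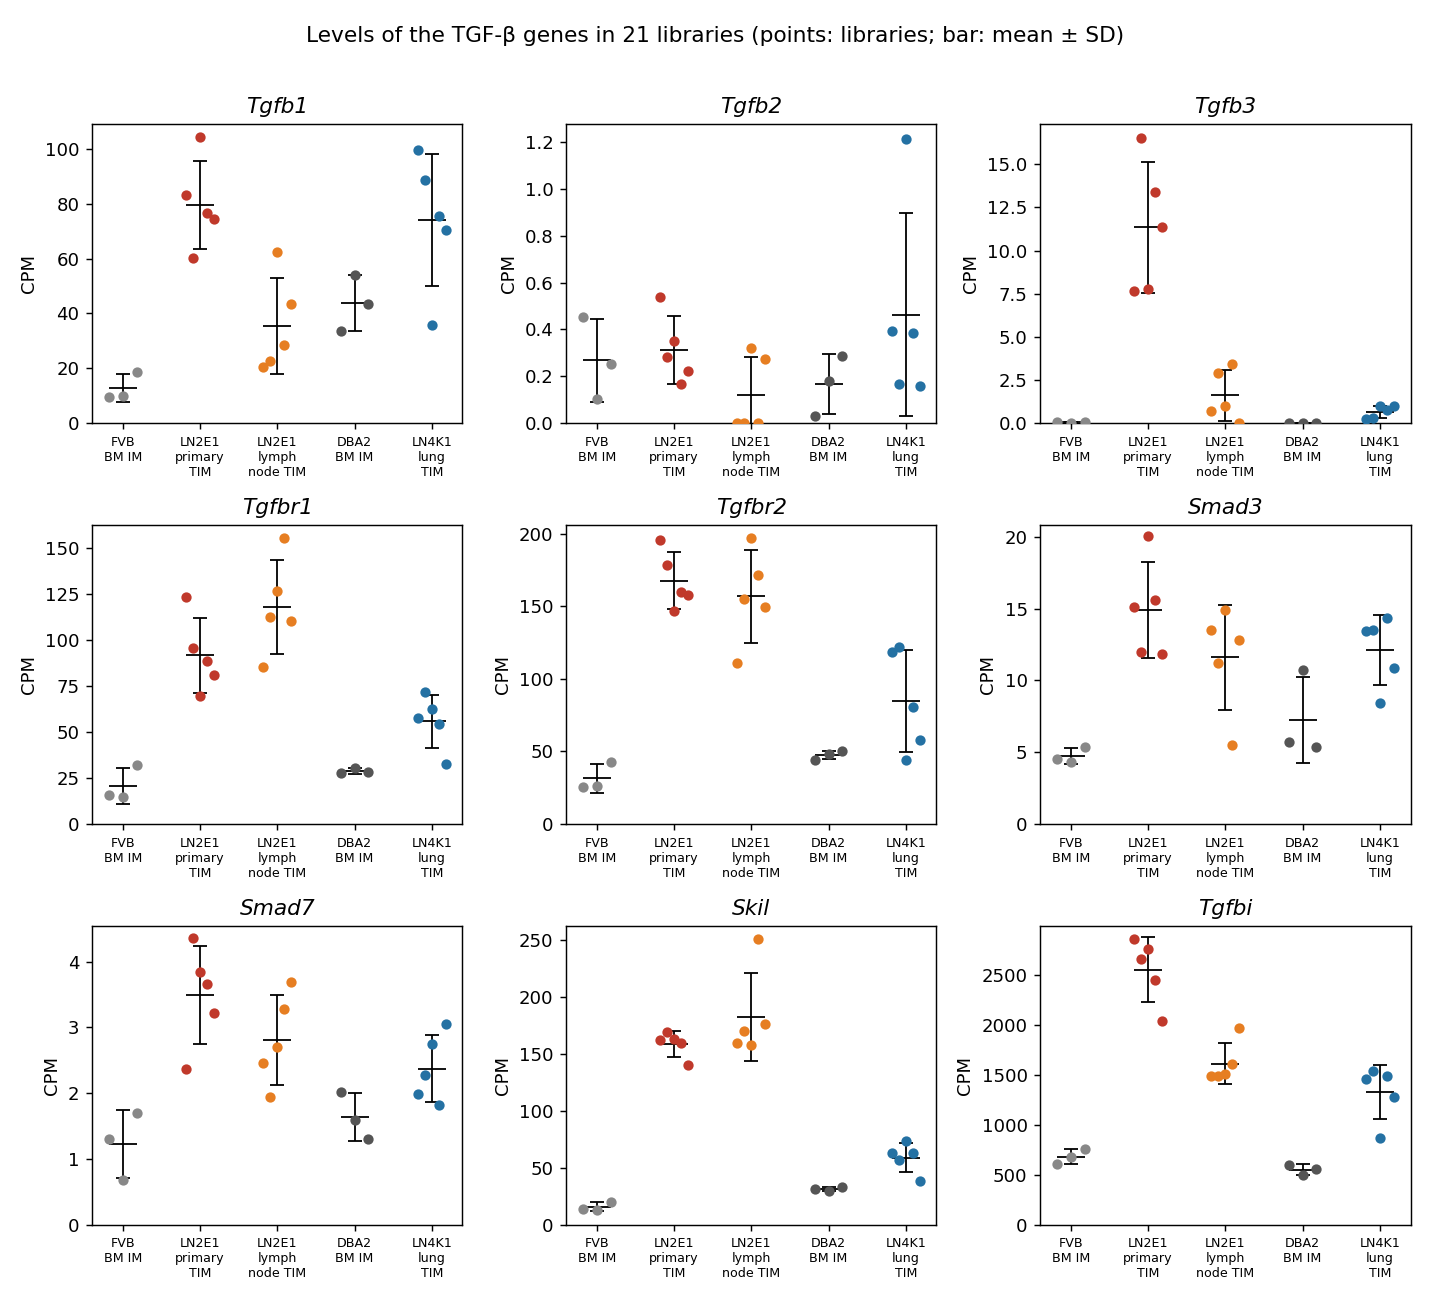
Level of each member in CPM (vertical axis, linear, from 0, a separate scale for each gene) in the 5 groups; points are libraries and bars are the mean ± SD (n = 3 for BM IMs, n = 5 for TIMs). Skil, Tgfbr1 and Tgfbr2 sit highest in the LN2E1 groups, Tgfb3 is at most 3.44 CPM outside the primary tumors, and Tgfb1 is low in FVB BM IMs with 9.64 to 18.6 CPM.

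Among the ligands, Tgfb1 (chr7:25687002-25705077, plus strand, GRCm38), the main TGF-β of immune cells, was at 9.64, 9.70 and 18.6 CPM in the 3 FVB BM IM libraries. It was at 83.1, 60.1, 104, 76.5 and 74.5 CPM in primary tumor TIMs and at 20.5, 22.7, 62.3, 28.6 and 43.4 CPM in lymph node TIMs, replicates 1 to 5. All libraries of both LN2E1 groups were therefore above all FVB BM IM libraries, although the lowest lymph node value was close to the highest in BM. Tgfb1 rose 6.19-fold in primary tumors (log2 2.63, standard error 0.28, adjusted p = 4.25e-05, edgeR) and 2.80-fold in lymph nodes (log2 1.49, standard error 0.42, adjusted p = 0.0196, edgeR). The lymph node call was lost without FVB BM IM replicate 1 (adjusted p = 0.0857, edgeR) or replicate 2 (adjusted p = 0.0864, edgeR).

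In DBA2 mice Tgfb1 was already at 33.6, 53.9 and 43.6 CPM in BM IMs. LN4K1 lung TIMs had 99.8, 88.8, 35.9, 75.6 and 70.4 CPM, so that replicate 3 fell inside the range of the BM IMs and the other 4 libraries lay above it. The log2 fold change of 0.69 (standard error 0.31) did not pass (adjusted p = 0.136, edgeR), but it was 0.86 with an adjusted p of 0.00505 (edgeR) without LN4K1 lung TIM replicate 3. Between the BM IMs themselves Tgfb1 was 3.49-fold higher in DBA2 than in FVB mice (log2 1.8, standard error 0.30, adjusted p = 0.00554, edgeR), with no overlap of libraries. Means in primary tumor TIMs (79.7 ± 16.1 CPM, SD, n = 5) and LN4K1 lung TIMs (74.1 ± 24.2 CPM, SD, n = 5) were close, with overlapping libraries. Platelets store TGF-β1, and the 8 platelet and megakaryocyte markers summed to 77.3, 28.7 and 179 CPM in FVB BM IM replicates 1, 2 and 3, highest in the library where Tgfb1 was highest. In DBA2 BM IM replicates 1, 2 and 3 they summed to 64.6, 4.58 and 0.855 CPM, highest in the library where Tgfb1 was lowest. In TIMs they summed to between 2.66 and 21 CPM, and their part in the Tgfb1 level was not tested.

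Tgfb3 (chr12:86056745-86079041, minus strand), a ligand best known from mesenchymal tissue, differed most in relative terms. It had 3, 3 and 4 counts in FVB BM IMs (0.0306 to 0.0357 CPM) and 0 counts in each DBA2 BM IM library. Primary tumor TIMs had 7.66, 16.5, 7.79, 13.4 and 11.3 CPM, lymph node TIMs 0.703, 2.89, 0.986, 3.44 and 0 CPM, and LN4K1 lung TIMs 0.220, 0.274, 0.972, 0.745 and 0.993 CPM. Every primary tumor library was thus above every other library in the series, while lymph node replicate 5 was at 0. Pooled counts were 338 times as high in primary tumor TIMs as in FVB BM IMs (95% counting interval 184 to 705, from 5030 against 10 counts) and 46.7 times as high in lymph node TIMs (25.2 to 97.8, from 638 counts), intervals that cover counting error and not the spread between libraries. Tgfb3 passed the test in primary tumors (log2 8.32, standard error 0.44, adjusted p = 5.97e-07, edgeR) and in lymph nodes (log2 5.52, standard error 1.84, adjusted p = 0.0391, edgeR), the latter in only 2 of the 8 fits that left out 1 library. It was lost without FVB BM IM replicate 1, 2 or 3 (adjusted p = 0.126, 0.13 and 0.108, edgeR) and without lymph node TIM replicate 2, 3 or 4 (adjusted p = 0.0689, 0.0554 and 0.0748, edgeR). Against a floor of 3 counts per library, Tgfb3 in LN4K1 lung TIMs was at least 20.2-fold higher than in DBA2 BM IMs (adjusted p = 0.00411, edgeR). In each comparison with BM IMs, Tgfb3 was tested only because of its counts in TIMs and could only rise. Its p-values there therefore lend no support beyond the counts themselves.

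Markers of fibroblasts, cells that produce Tgfb3 in many tissues and that the CD45+ CD11b+ gate should leave out, moved with it. All 8 fibroblast markers had 10 or more counts in every primary tumor library, and they summed to 557, 1079, 383, 1140 and 716 CPM in replicates 1 to 5, highest in replicates 2 and 4, where Tgfb3 was also highest. In lymph node TIMs they summed to 12.2, 108, 46.1, 89.1 and 23.8 CPM, again highest in replicates 2 and 4, with 2 of the 8 detected in every library and Postn at 0. Pdgfrb alone was at 11.3 to 20.6 CPM in these libraries. In LN4K1 lung TIMs the sum was 7.83, 4.07, 1.81, 20.6 and 43.1 CPM, so that replicate 3 had the lowest sum beside a Tgfb3 level of 0.972 CPM. FVB BM IMs had 5.25 to 9.16 CPM, nearly all of it Pdgfrb (5.21 to 9.16 CPM), with Lum, Pdgfra and Postn at 0. DBA2 BM IMs had 0.0898 to 1.8 CPM, with Lum at 0. The sum of the 6 lung epithelial markers was likewise highest in primary tumor TIMs, at 190 to 907 CPM. It was 9.80 to 140 CPM in lymph node TIMs, 7.63 to 121 CPM in LN4K1 lung TIMs and at most 3.63 CPM in BM IMs. Cdh1, which made up most of the lymph node sum, had a higher median there than in primary tumor TIMs (58.2 and 45.7 CPM). The part of these cells in the Tgfb3 level was not tested. Opposite-strand exons of Gm37804 and Gm48008 cover 4.8% and 7.6% of the exon bases of Tgfb3, and since these libraries did not record strand, reads of the overlapping genes cannot be told apart.

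**Figure D2:**
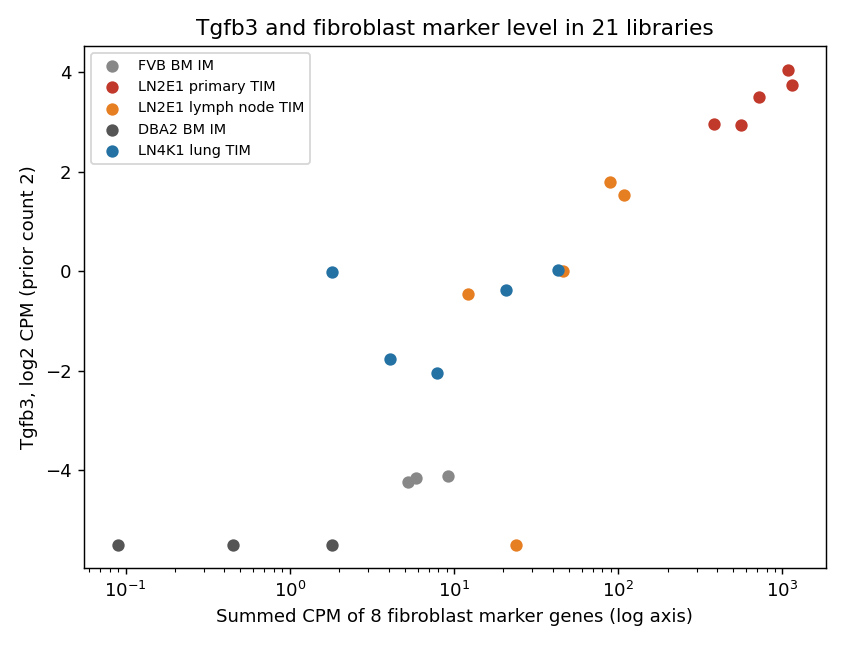
Tgfb3 level (vertical axis, log2 CPM with a prior count of 2) against the summed CPM of 8 fibroblast marker genes (horizontal axis, log scale); each point is 1 of 21 libraries, coloured by group. The 5 primary tumor libraries are highest on both axes, from 383 to 1140 CPM of markers, lymph node replicate 5 has 0 counts of Tgfb3 at 23.8 CPM of markers, and LN4K1 replicate 3 has 0.972 CPM of Tgfb3 at 1.81 CPM.

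Tgfb2 (chr1:186622792-186705989, minus strand), an isoform prominent in epithelia and development, was barely detected. Its highest value was 1.22 CPM in LN4K1 lung TIM replicate 3, and it was at 0 in lymph node replicates 1, 2 and 4. Libraries of all groups overlapped, and the log2 differences from BM IMs were 0.20 (standard error 0.73) in primary tumors, -1.16 (standard error 1.8) in lymph nodes and 1.40 (standard error 1.04) in LN4K1 lungs, none of which passed (adjusted p = 0.831, 0.659 and 0.373, edgeR). Exons of Gm29491 on the other strand cover 2.1% of its exon bases. These standard errors leave changes of several fold in either direction undetectable in these libraries. Counts scaled by exon length, in CPM per kilobase, allow the ligands to be compared with one another. By that level Tgfb1 made up 95.6% to 98.6% of the 3 ligands in FVB BM IMs, 99.4% to 99.9% in DBA2 BM IMs, 93.5% to 99.4% in LN4K1 lung TIMs and 84.1% to 99.5% in lymph node TIMs. Primary tumor TIMs had a lower share, 70.8% to 89.7%, since Tgfb3 there made up 10.0% to 29.0%.

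Both receptors were higher in TIMs of the LN2E1 model. Tgfbr1 (chr4:47353222-47414931, plus strand), the type I receptor kinase, was at 15.8, 14.3 and 32.1 CPM in FVB BM IMs. It was at 69.7 to 123 CPM (median 88.7) in primary tumor TIMs and at 85.5 to 155 CPM (median 113) in lymph node TIMs, with no overlap with BM. The rise was 4.32-fold in primary tumors (log2 2.11, standard error 0.31, adjusted p = 0.000281, edgeR) and 5.66-fold in lymph nodes (log2 2.50, standard error 0.32, adjusted p = 0.00021, edgeR). In DBA2 BM IMs it was at 27.8, 30.6 and 28.1 CPM and in LN4K1 lung TIMs at 57.5, 71.6, 62.5, 54.5 and 32.6 CPM, also without overlap. This 1.84-fold rise (log2 0.88, standard error 0.23, adjusted p = 0.0232, edgeR) was lost when any 1 of the 3 DBA2 BM IM libraries was left out, with adjusted p up to 0.0882.

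Tgfbr2 (chr9:116084293-116175360, minus strand), the ligand-binding type II receptor, was at 25.1, 26.2 and 42.6 CPM in FVB BM IMs. Primary tumor TIMs had 196, 178, 147, 159.9 and 158 CPM and lymph node TIMs 111, 155, 198, 172 and 149.7 CPM. The 10 LN2E1 libraries lay far above the 3 BM IM libraries and overlapped each other. Tgfbr2 rose 5.26-fold in primary tumors (log2 2.40, standard error 0.20, adjusted p = 9.7e-06, edgeR) and 5.00-fold in lymph nodes (log2 2.32, standard error 0.25, adjusted p = 7.74e-05, edgeR). In LN4K1 lung TIMs it spread from 43.9 CPM in replicate 3 to 122 CPM in replicate 2, against 44.2, 48.2 and 50.2 CPM in DBA2 BM IMs. The log2 difference of 0.76 (standard error 0.33) did not pass (adjusted p = 0.129, edgeR), and without replicate 3 it was 0.92 with an adjusted p of 0.0163 (edgeR).

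Smad3 (chr9:63646767-63757994, minus strand), which carries the receptor signal to the nucleus, was at 4.52, 4.30 and 5.36 CPM in FVB BM IMs. It rose 3.11-fold in primary tumor TIMs, where libraries lay between 11.8 and 20 CPM (log2 1.64, standard error 0.22, adjusted p = 0.000148, edgeR). In lymph node TIMs it was at 13.5, 11.2, 14.9, 5.52 and 12.8 CPM, of which replicate 4 was just above the highest BM value, and it rose 2.45-fold (log2 1.29, standard error 0.36, adjusted p = 0.018, edgeR), a call lost without FVB BM IM replicate 1 (adjusted p = 0.0714, edgeR) or replicate 2 (adjusted p = 0.0794, edgeR). DBA2 BM IMs had 5.70, 10.7 and 5.36 CPM and LN4K1 lung TIMs 8.41 to 14.3 CPM (median 13.4), which overlapped. The log2 difference there was 0.66 (standard error 0.29, adjusted p = 0.126, edgeR), and 0.77 with an adjusted p of 0.0418 (edgeR) without LN4K1 lung TIM replicate 3. Without DBA2 BM IM replicate 2, the library with 10.7 CPM, it was 1.05 with an adjusted p of 0.0321 (edgeR).

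Among the feedback inhibitors, Skil (chr3:31095058-31122577, plus strand) encodes SnoN, a corepressor that holds SMAD complexes inactive and is itself induced by TGF-β. Its level was 14.1, 13.0 and 20.2 CPM in FVB BM IMs. Primary tumor TIMs had 163, 169, 163, 159.7 and 140.1 CPM and lymph node TIMs 159.5, 170.2, 158, 251 and 176 CPM. No LN2E1 TIM library came near a BM IM library. The rise was 9.90-fold in primary tumors (log2 3.31, standard error 0.18, adjusted p = 5.73e-07, edgeR) and 11.6-fold in lymph nodes (log2 3.53, standard error 0.24, adjusted p = 3.58e-06, edgeR), and both calls were kept in all 8 fits that left out 1 library. LN4K1 lung TIMs had 62.8, 56.7, 73.8, 62.8 and 38.7 CPM against 31.2, 29.5 and 32.9 CPM in DBA2 BM IMs, again without overlap. There the rise was 1.79-fold (log2 0.84, standard error 0.20, adjusted p = 0.0135, edgeR), and it did not pass without DBA2 BM IM replicate 1 (adjusted p = 0.0533, edgeR) or replicate 2 (adjusted p = 0.0653, edgeR).

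Smad7 (chr18:75367529-75395935, plus strand), the inhibitory SMAD that brings ubiquitin ligases to the receptor, was low throughout. It was at 1.31, 0.683 and 1.71 CPM in FVB BM IMs and at 2.37 to 4.36 CPM (median 3.65) in primary tumor TIMs, without overlap, a 2.78-fold rise (log2 1.48, standard error 0.37, adjusted p = 0.00624, edgeR). In lymph node TIMs it was at 1.95 to 3.68 CPM, also above every FVB BM IM library, but the log2 difference of 1.19 (standard error 0.59) did not pass (adjusted p = 0.146, edgeR). It passed in 4 of the 7 other settings, with adjusted p from 0.0221 to 0.382 over the 7 and log2 differences from 1.03 to 1.19. LN4K1 lung TIMs (1.82 to 3.04 CPM) overlapped DBA2 BM IMs (1.30 to 2.02 CPM), with a log2 difference of 0.46 (standard error 0.34, adjusted p = 0.367, edgeR).

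Tgfbi (chr13:56609523-56639562, plus strand), a secreted matrix protein named for its induction by TGF-β, was the most abundant member in every group when scaled by exon length. Its mean was 180.5 CPM per kilobase in FVB BM IMs and 677 CPM per kilobase in primary tumor TIMs, whereas no other member had a group mean above 20.5 CPM per kilobase. Tgfbi was at 608, 679 and 756 CPM in FVB BM IMs, at 2855, 2656, 2755, 2452 and 2041 CPM in primary tumor TIMs and at 1486, 1491, 1512, 1608 and 1965 CPM in lymph node TIMs. The 3 groups did not overlap one another. It rose 3.69-fold in primary tumors (log2 1.88, standard error 0.14, adjusted p = 3.73e-06, edgeR) and 2.37-fold in lymph nodes (log2 1.24, standard error 0.14, adjusted p = 8.08e-05, edgeR). In DBA2 mice it went from 598, 496 and 559 CPM in BM IMs to 1455, 1539, 871, 1486 and 1278 CPM in LN4K1 lung TIMs, a 2.28-fold rise (log2 1.19, standard error 0.20, adjusted p = 0.00191, edgeR). Even replicate 3, the lowest TIM library, lay above all BM IM libraries, and the call was kept in all 8 fits that left out 1 library.

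**Figure D3:**
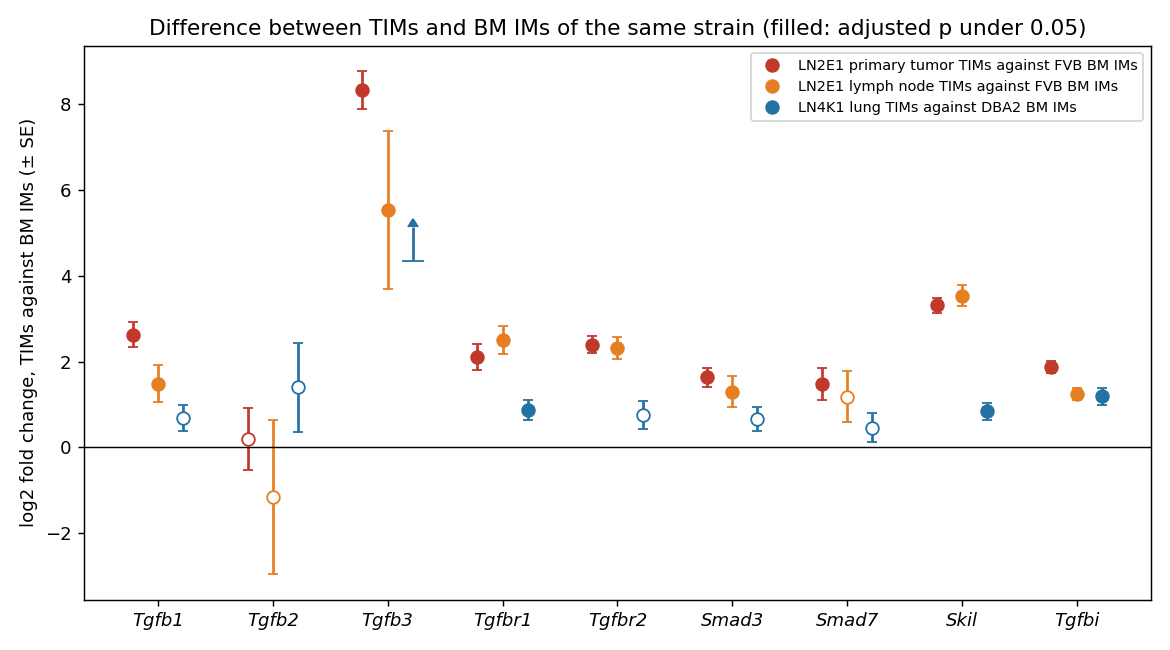
Log2 fold change of each member (vertical axis, ± standard error) in 3 comparisons of TIMs with BM IMs of the same strain; filled points passed an adjusted p under 0.05 and open points did not, and the arrow marks the lower bound of 20.2-fold for Tgfb3 in LN4K1 lung TIMs. Skil, Tgfbr1 and Tgfbr2 lie between 2.11 and 3.53 in the LN2E1 comparisons and between 0.76 and 0.88 in LN4K1, while Tgfbi lies between 1.19 and 1.88 in all 3.

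Single libraries moved the number of members called. For the fits without 1 library, here and below, the number of all genes called is not given. A general shift in calls therefore cannot be told from one among the members. Without FVB BM IM replicate 1, or without replicate 2, 4 members passed in lymph nodes in place of 7, namely Tgfbr1, Tgfbr2, Skil and Tgfbi. The DEGs in lymph nodes went from 3 to 1, Skil, without either of these libraries or without lymph node TIM replicate 2, 3, 4 or 5. In LN4K1 lung metastases 7 members passed without TIM replicate 3, where Tgfb1, Tgfbr2 and Smad3 joined Tgfb3, Tgfbr1, Skil and Tgfbi, and Tgfbi was then a DEG. Without DBA2 BM IM replicate 1, Tgfb3 and Tgfbi were the 2 that passed there. In primary tumors 8 members passed whichever library was left out, and 4 to 6 were DEGs. Tgfb1 was no longer a DEG there without FVB BM IM replicate 1 or 2 or primary tumor TIM replicate 1, 4 or 5.

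Lymph node TIMs were set against primary tumor TIMs to ask whether the members differ between sites of the same tumor. Of the 9 members, 2 fell in lymph nodes and none rose, against a background of 11.7% of genes called and 5.55% that fell. Tgfb1 was 2.23-fold lower (log2 -1.16, standard error 0.29, adjusted p = 0.0255, edgeR), with only lymph node replicate 3 inside the range of the primary tumor libraries. Tgfbi was 1.57-fold lower (log2 -0.65, standard error 0.11, adjusted p = 0.00453, edgeR), with no overlap. Tgfb3 had a log2 difference of -2.81 (standard error 0.93) that did not pass (adjusted p = 0.0753, edgeR), although its libraries did not overlap and an exact two-sided permutation test on mean log2 CPM gave p = 0.00794, the smallest that 5 libraries against 5 allow. Without lymph node replicate 5, which had no counts of it, Tgfb3 passed (log2 -2.49, adjusted p = 0.0145, edgeR) and 3 members were called. Tgfbr1, Tgfbr2, Smad3, Smad7 and Skil had log2 differences between -0.35 and 0.38 with overlapping libraries, and none passed. The call for Tgfb1 held in 5 of the 10 fits that left out 1 library, and was lost without primary tumor replicates 1, 3, 4 or 5 or lymph node replicate 2, so that 1 member then passed, whereas that for Tgfbi held in all 10.

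An interaction term compared the change between BM IMs and TIMs in one model with that in the other. For 5 of the 9 members it was larger in primary tumors of the LN2E1 model than in the lungs of the LN4K1 model, and it was smaller for none, where 26.5% of genes differed and 13.2% did so in this direction. Skil differed most, with a log2 difference of 2.48 (standard error 0.26, adjusted p = 3.41e-05, edgeR), followed by Tgfb1 (1.96, standard error 0.43, adjusted p = 0.00445, edgeR), Tgfbr2 (1.65, standard error 0.41, adjusted p = 0.00842, edgeR), Tgfbr1 (1.25, standard error 0.39, adjusted p = 0.0273, edgeR) and Tgfbi (0.71, standard error 0.24, adjusted p = 0.0395, edgeR). Smad3 (0.99, adjusted p = 0.0542, edgeR) and Smad7 (1.04, adjusted p = 0.116, edgeR) had positive differences that did not pass, and Tgfb2 had -1.19 (adjusted p = 0.514, edgeR). The call for Tgfbi held in 7 of the 16 fits that left out 1 library, being lost without FVB BM IM replicate 1 or 2, DBA2 BM IM replicate 1 or 3, LN4K1 lung TIM replicate 5 or primary tumor TIM replicate 1, 2, 3 or 4. That for Tgfbr1 held in 13 and was lost without FVB BM IM replicate 1 or 2 or DBA2 BM IM replicate 2, so that without either of those FVB libraries only Tgfb1, Tgfbr2 and Skil passed. The groups entered these differences in unlike ways. For Skil the primary tumor TIMs (159.0 ± 11.1 CPM, SD, n = 5) were above the LN4K1 lung TIMs (59.0 ± 12.9 CPM, SD, n = 5) without overlap, and FVB BM IMs were below DBA2 BM IMs. For Tgfb1 the TIMs overlapped and only the BM IMs were apart. Tgfb3 was among the 9 members tested, but its log2 difference of -0.50 (adjusted p = 0.481, edgeR) is not interpretable, since DBA2 BM IMs had no counts of it.

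BM IMs of the strains differed in 2 of the 8 members that could be tested, both higher in DBA2, against a background of 21.1% of genes called and 11.5% higher in DBA2. Besides Tgfb1, Skil was higher in DBA2 BM IMs (log2 1.0, standard error 0.20, adjusted p = 0.0107, edgeR). Tgfbr2, Smad3 and Tgfbi did not pass, with log2 differences of 0.62, 0.64 and -0.28 (adjusted p = 0.074, 0.166 and 0.13, edgeR). Their libraries did not overlap between the strains, nor did those of Tgfb1 and Skil, but the share of all genes without overlap was not counted. For each of these genes the exact two-sided permutation test on mean log2 CPM gave p = 0.1, the smallest that 3 libraries against 3 allow. FVB BM IM replicate 3 had the highest level of its group for 8 of the 9 members. Without it, 4 members passed, Tgfb1, Tgfbr1, Tgfbr2 and Skil.

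Across the 21 libraries the members varied together to different degrees. By Pearson's correlation of log2 CPM, a description over libraries that share 5 groups, Tgfbr1 was closest to Skil (r = 0.963) and to Tgfbr2 (r = 0.937), and Tgfbr2 to Skil (r = 0.93). Tgfb1 stood further off, with r = 0.478 to Skil and 0.482 to Tgfbr1, and was closest to Smad3 (r = 0.781). Tgfb2 followed none of them, with r between -0.202 and 0.36. Over 8016 genes whose mean log2 CPM exceeded 3, the patterns most like the members were those of Pik3ap1 (r = 0.99) and Spata13 (r = 0.98) for Tgfbr2, Trim30d (r = 0.982) and Ets2 (r = 0.981) for Skil, Itgal (r = 0.971) and Tmx3 (r = 0.97) for Tgfbr1, and Tlr2 (r = 0.969) and Kcna3 (r = 0.966) for Tgfbi. For Tgfb1 they were Rara (r = 0.953) and Map3k14 (r = 0.952), for Smad3 Dtx3 (r = 0.888) and Csf2rb2 (r = 0.885), for Smad7 Samd4b (r = 0.877) and Phlda1 (r = 0.867), and for Tgfb3 Sec24d (r = 0.861) and Ergic1 (r = 0.856).

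A further 49 genes of the pathway were counted in 5 lists. In primary tumor TIMs 33 of the 48 tested rose and 5 fell, where 61.9% of all genes were called and 33.3% rose. In lymph node TIMs 19 of 42 rose and 3 fell, where 37.4% of genes were called and 20.2% rose, and in LN4K1 lung TIMs 16 of 45 rose and 1 fell, where 24.9% were called and 13.9% rose. Some of these genes passed the filter on low counts only through the TIMs, with under 10 counts in every BM IM library, and could be called in 1 direction only: 7 genes in primary tumors, 1 in lymph nodes and 4 in LN4K1. Among the other 41 genes, 26 rose and 5 fell in primary tumors, 18 rose and 3 fell in lymph nodes, and 13 rose and 1 fell in LN4K1. With at least 10 counts asked of every library, 22 rose and 6 fell in primary tumors, where 3642 of all 11554 genes tested rose and 3800 fell. Over the 48, 42 and 45 pathway genes tested the median log2 fold changes were 1.71, 0.85 and 0.71, against 0.08, -0.04 and 0.03 for all genes tested in each comparison. Setting genes with a group at 0 counts to their lower bounds left these medians at 1.71, 0.85 and 0.71. Between lymph node and primary tumor TIMs 4 of 46 rose and 10 fell, where 11.7% of genes were called and 5.55% fell. Of these genes, Ltbp2, Lrrc32 and Snai1 passed the filter only through the primary tumor TIMs and could only fall. Among the other 43 genes, 4 rose and 7 fell. The signed log2 change from BM IMs was more positive in the LN2E1 primary tumor than in the LN4K1 lung for 16 of 48 genes and more negative for 3, where 26.5% of genes differed. Single libraries moved some of these counts: the 17 genes called in LN4K1 lung TIMs went to 10 without DBA2 BM IM replicate 2 and to 11 without replicate 3 or without TIM replicate 4, and the 14 called between the LN2E1 sites went to 8 without primary tumor replicate 4 and to 9 without replicate 1, 2 or 5.

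Of the genes for latency, storage and activation of the ligand, 13 of 14 rose in primary tumor TIMs (33.3% of all genes), 6 of the 10 tested in lymph node TIMs (20.2%) and 5 of the 12 tested in LN4K1 lung TIMs (13.9%). In primary tumors Ltbp2, Lrrc32, Itgb6 and Itgb8 passed the filter only through the TIMs, and 9 of the other 10 rose. Mmp14, a membrane protease that can free TGF-β from its latent complex, rose from 0.286 ± 0.312 CPM (SD, n = 3) in the BM of FVB mice to 139.5 ± 29.8 CPM (SD, n = 5) in TIMs of the primary tumor (log2 8.84, adjusted p = 8.3e-06, edgeR) and 65.8 ± 10.4 CPM (n = 5) in lymph node TIMs (log2 7.80, adjusted p = 3.64e-05, edgeR). It also rose in LN4K1 lung TIMs, to 23.5 ± 7.30 CPM (n = 5) from 0.243 ± 0.421 CPM (n = 3) in DBA2 BM IMs (log2 6.52, adjusted p = 0.00427, edgeR). The gelatinase Mmp2 (log2 7.55, adjusted p = 1.94e-05, edgeR) and the latent TGF-β binding protein gene Ltbp4 (log2 7.73, adjusted p = 7.27e-05, edgeR) rose in primary tumor TIMs. Against primary tumors, lymph node TIMs had less Mmp2 (log2 -4.49, adjusted p = 0.00735, edgeR), Ltbp1 (log2 -3.02, adjusted p = 0.0028, edgeR) and Mmp14 (log2 -1.07, adjusted p = 0.00325, edgeR). In that comparison 7 of the 12 genes of the list fell and none rose (5.55% of all genes fell), of which Ltbp2 and Lrrc32 had passed the filter only through the primary tumor TIMs. Several of these matrix genes are made by fibroblasts, which the CD45+ CD11b+ gate should leave out and whose markers were at 383 to 1140 CPM in the primary tumor libraries and 12.2 to 108 CPM in the lymph node libraries, and the part of such cells was not tested. The log2 changes of Mmp2, Mmp9 and Ltbp1 were higher in primary tumors than in LN4K1 lungs by 5.87, 5.42 and 5.27 (adjusted p = 0.000662, 0.019 and 0.0243, edgeR). For Mmp9 they were 2.22 and -3.20, neither of which passed (adjusted p = 0.069 and 0.0637, edgeR). Its libraries spread widely, from 5.37 to 68.5 CPM in primary tumor TIMs and from 3.32 to 15.1 CPM in DBA2 BM IMs.

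Coreceptors and receptor regulators rose in 5 of 7, 4 of 7 and 2 of 7 cases in primary tumor, lymph node and LN4K1 lung TIMs, against 33.3%, 20.2% and 13.9% of all genes, and 1 fell in each. The coreceptor betaglycan (Tgfbr3) rose in lymph node TIMs by 3.10 on the log2 scale (adjusted p = 0.00807, edgeR). It rose in primary tumor TIMs as well, by 2.93 (adjusted p = 0.000506, edgeR). In LN4K1 lung TIMs its log2 difference of -1.12 did not pass (adjusted p = 0.248, edgeR). Bambi, a decoy receptor that blocks signaling, was higher in lymph node than in primary tumor TIMs by 0.58 (adjusted p = 0.0169, edgeR). Fkbp1a, whose product keeps the type I receptor inactive, fell in primary tumor TIMs (log2 -0.60, adjusted p = 0.00117, edgeR) and was at 0.07 in LN4K1 lung TIMs (adjusted p = 0.76, edgeR), a difference between the changes of -0.65 (adjusted p = 0.0106, edgeR).

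Of the SMAD transducers and their partners that could be tested, 1 of 5 rose and 3 fell in primary tumor TIMs, where 61.9% of all genes were called. Smad4, the common partner of receptor SMADs, fell from 19.5 ± 1.25 CPM (SD, n = 3) to 10.9 ± 1.81 CPM (n = 5), a log2 change of -0.86 (adjusted p = 0.00104, edgeR), and Trim33, which competes with it, had a log2 change of -0.66 (adjusted p = 0.0107, edgeR). Smad2, the partner of Smad3 in receptor signaling, fell in primary tumor TIMs (log2 -0.64, adjusted p = 0.000276, edgeR) and in lymph node TIMs (log2 -0.53, adjusted p = 0.0171, edgeR). In LN4K1 lung TIMs none of the 5 passed, and the changes in Smad4 and Smad2 differed between the models by -1.61 and -0.65 on the log2 scale (adjusted p = 0.00349 and 0.0043, edgeR).

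Of the inhibitors of the pathway, 3 of 10 rose in primary tumor TIMs, 2 of 10 in lymph node TIMs and 2 of 10 in LN4K1 lung TIMs, close to the 33.3%, 20.2% and 13.9% of all genes that rose, and none fell. Tgif1, a corepressor of SMAD2 and SMAD3, was 0.87 higher on the log2 scale in lymph node than in primary tumor TIMs (adjusted p = 0.00339, edgeR). Of the other target genes, 11 of 12 rose and 1 fell in primary tumor TIMs, 6 of 10 rose and 1 fell in lymph node TIMs, and 7 of 11 rose and none fell in LN4K1 lung TIMs, against the same shares of all genes. Bhlhe40, a transcriptional repressor, rose from 24.0 ± 5.70 CPM (SD, n = 3) to 407 ± 39.6 CPM (n = 5) in lymph node TIMs (log2 4.08, adjusted p = 5.86e-07, edgeR) and from 17.7 ± 1.16 CPM (n = 3) to 107 ± 23.2 CPM (n = 5) in LN4K1 lung TIMs (log2 2.52, adjusted p = 1.85e-05, edgeR). Bhlhe40 also rose in primary tumor TIMs (log2 3.90, adjusted p = 9.19e-07, edgeR). The inhibitors of differentiation moved apart. Id3 rose in primary tumor TIMs (log2 2.44, adjusted p = 2.62e-05, edgeR), lymph node TIMs (log2 2.85, adjusted p = 3.69e-05, edgeR) and LN4K1 lung TIMs (log2 3.07, adjusted p = 0.000334, edgeR). It was 0.40 higher in lymph node than in primary tumor TIMs (adjusted p = 0.0385, edgeR). Id1 fell in primary tumor TIMs (log2 -0.76, adjusted p = 0.0048, edgeR) and lymph node TIMs (log2 -0.86, adjusted p = 0.0108, edgeR). In LN4K1 lung TIMs Id1 had a log2 difference of -0.76 that did not pass (adjusted p = 0.089, edgeR). Id2 rose in primary tumor TIMs (log2 0.79, adjusted p = 0.00155, edgeR) and lymph node TIMs (log2 0.87, adjusted p = 0.00241, edgeR). Id2 and the values of Id3, Smad2, Tgfbr3 and Bhlhe40 outside the naming rule were added after they were seen.

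**Figure D4:**
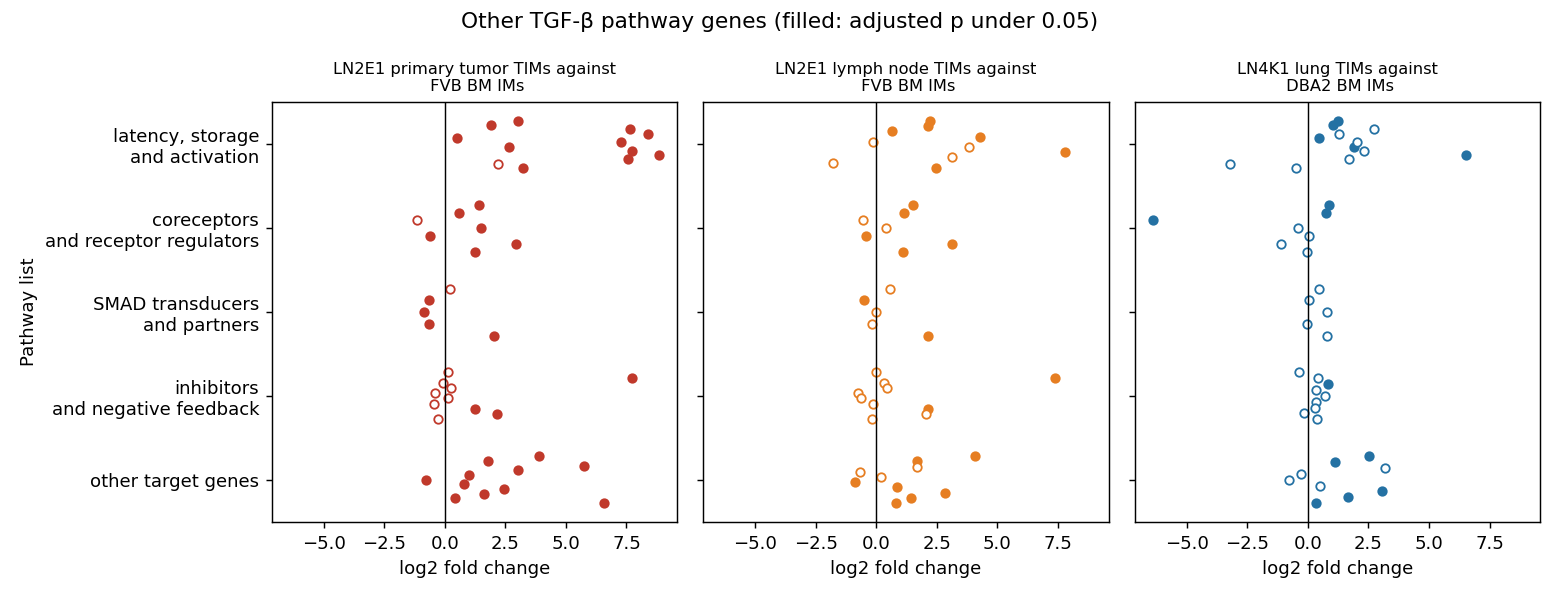
Log2 fold change (horizontal axis) of the other pathway genes in 5 lists (rows) for 3 comparisons of TIMs with BM IMs; each point is a gene, filled where the adjusted p was under 0.05, and genes with no counts in 1 of the groups (3, 0 and 3) are left out. Genes of latency, storage and activation lie furthest to the right, up to 8.84 for Mmp14 in primary tumors.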

How the data were processed

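RNA of sorted inflammatory monocytes was made into non-stranded libraries and sequenced, and the authors deposited raw read counts per gene, made with BBMap on mm10 (GRCm38), SAMtools 1.8 and featureCounts 1.5.2, with no normalization. The 21 count columns were assigned to samples by their labels, and 3910 of the 23420 genes had 0 counts in every library. No tables of fold changes were used. Total counts per library were 82366078 to 94315412 in FVB BM IMs, 81872688 to 85617214 in DBA2 BM IMs, 82555019 to 101043568 in LN4K1 lung TIMs, 87268067 to 95041694 in primary tumor TIMs and 80772922 to 95628109 in lymph node TIMs. These depths leave a floor of 3 counts at or below 0.0371 CPM.

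From these counts, 6 comparisons were fitted with edgeR 4.0.16 in R 4.3.3 (limma 3.58.1), each on the groups it compares, after filterByExpr (minimum count 10, minimum total 15), with TMM scaling, the quasi-likelihood test and Benjamini-Hochberg adjustment over all genes tested. The standard error was taken as the log2 fold change over the square root of F. For single genes, exact two-sided permutation tests compared mean log2 CPM (prior count 2). Python 3.11.15 (scipy 1.17.1, pandas 2.3.3, numpy 2.4.6, matplotlib 3.10.9) was used for values and plots. Gene positions and exon lengths came from GENCODE on GRCm38 and promoters from RefSeq on GRCm38.p6. In simulated data with log2 changes of 2, the test recovered 70.8% of 195 changed genes among 14219 for primary tumor TIMs against FVB BM IMs and 59.1% of 198 among 14859 for the interaction, with 1.4% and 3.3% false calls. In the data themselves 61.9% and 26.5% of genes were called in these comparisons, far more than were changed in the simulation. The simulated rates therefore need not hold for the data.

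The members and all gene lists were chosen with earlier results of these data known. All 9 members are named; of the pathway lists, up to 3 genes in each direction per comparison are named, those with the largest change among genes with an adjusted p under 0.05, a mean log2 CPM above 3 and, other than for the interaction, no overlap of libraries. Alternatives were DESeq2 1.42.0 with and without shrinkage, its size factors in edgeR, other filters on low counts, a fit of all 5 groups, the replicate number as a block, and leaving out each library. Labels give groups the same replicate numbers, but libraries of the same number did not deviate together in every pair (r from -0.297 to 0.297 over 8016 genes), so the numbers were not taken to pair libraries. No pair of libraries of a group had the same counts within sampling noise.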

Additional observations from a re-analysis of the deposited data

Results flagged for a closer look

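In 27 sets of 5 TIM libraries, 1 set per member and group, 3 libraries lay apart from the rest of their group, where chance gives about 1 in 20 such sets. Tgfb2 was at 1.22 CPM in LN4K1 lung TIM replicate 3, with a gap to the next library of 0.775 of the group's range. Skil was at 251 CPM in lymph node TIM replicate 4 (gap 0.805 of the range), and Tgfbi was at 1965 CPM in lymph node TIM replicate 5 (gap 0.747 of the range).

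The change from BM IMs to TIMs differed between the LN2E1 primary tumor and the LN4K1 lung by the interaction test of edgeR for 5 members. The log2 difference between the changes was 2.48 for Skil, 1.96 for Tgfb1, 1.65 for Tgfbr2, 1.25 for Tgfbr1 and 0.71 for Tgfbi, each higher in LN2E1. Cell line, strain, route and tissue cannot be told apart in these differences.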

How the results depend on the processing

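In primary tumor TIMs 8 members were called under each alternative except the replicate block and the filter of 10 counts in every library, which Tgfb3 did not pass, with 7 each, and 8 in each fit without 1 library. The DEGs there numbered 5, and 0 with the replicate block, 8 with DESeq2 unshrunken and 8 shrunken. Unless a setting is named beside them, the shares of all genes given above are those of the main fit. Shares of DEGs among all genes under the other settings are not given here. In lymph node TIMs the DEGs numbered 3, and 0 with the replicate block. In LN4K1 lung TIMs the members called numbered 4, and 2 with the replicate block (Tgfbr1 and Skil); the DEGs numbered 0, and 1 in the fit of all 5 groups and 2 with either form of DESeq2; the pathway genes called numbered 17, and 11 with at least 10 counts in every library and 6 with the replicate block. Between the LN2E1 sites 2 members were called, and 1 with the replicate block, and 14 pathway genes, and 8 with at least 10 counts in every library or with the replicate block. Since the numbers were not taken to pair libraries, the replicate block is given for completeness: lymph node TIMs and FVB BM IMs of the same number correlated by 0.0807 to 0.297, with 3 of 3 closest to their own number, while primary tumor TIMs and FVB BM IMs did so by -0.297 to 0.0801, with 0 of 3. Beside the counts above, the replicate block gave 6 members in lymph nodes, 3 between strains and 4 for the interaction. Of all genes tested, the block called 5954 of 14569 in primary tumors, 3566 of 13273 in lymph nodes and 1324 of 13624 in LN4K1. It called 533 of 13488 between the LN2E1 sites, 2392 of 12905 between strains and 3115 of 15182 for the interaction. The block thus called fewer genes in general than the main fit. The filter of 10 counts called 7442 of 11554, 2988 of 11088 and 1215 of 10345 in primary tumors, in LN4K1 and between the sites.

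Leaving out 1 library gave 4 to 7 members called in lymph node TIMs (DEGs 1 to 3), 2 to 7 in LN4K1 lung TIMs (DEGs 0 to 1; pathway genes 10 to 21), 1 to 3 between the LN2E1 sites (pathway genes 8 to 18), 2 to 4 between the strains and 3 to 6 for the interaction. The log2 difference of Tgfb2 in primary tumors ranged from -0.18 (without FVB BM IM replicate 2) to 0.82 and was -0.09 without primary tumor replicate 1; that of Tgfbr2 between the LN2E1 sites ranged from -0.19 to 0.0175 (without lymph node replicate 1). The interaction of Tgfb3, with no counts in DBA2 BM IMs, was -0.50 in edgeR and 0.12 with DESeq2 unshrunken, and neither is interpretable. The cause of these changes was not tested. Without the number of all genes called in each such fit, the ranges say nothing particular about the members. Of the values for single members, 330 kept their direction and side of the threshold under the other settings, 15 gained and 6 lost the call; over fits without 1 library these numbers were 452, 11 and 32. Shrinkage was not run for the interaction. Depth limits Tgfb3 in BM IMs, which lay at or near the floor of 3 counts. Tgfb2 had from 0 to 90 counts per library and varied widely between libraries of the same group.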
